A study of Homo sapiens with 54 samples.

Results

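MYC and 37 genes of ribosome biogenesis were followed through the treatment stages of a xenograft model of prostate cancer. These 38 genes, of 60642 gene symbols in the expression table, were taken by name: MYC and its relative MYCN, and factors of the nucleolus that transcribe, modify, cut or assemble ribosomal RNA (rRNA). RNA-seq had been carried out on 54 tumors, each from its own mouse, grown under the skin of NOD-SCID mice from LNCaP, a human line of prostate cancer cells that responds to androgen. The hosts lack working T and B cells, all tumors descend from a single cell line, and the age of the mice at harvest is not given in the sources used here.

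The 5 groups followed the loss of androgen and the relapses after it. PRE-CX tumors (n = 9) came from mice that had mock surgery and kept their testes, and were taken at a volume of 1000 mm3. The mice of the other 4 groups had been castrated. POST-CX tumors (n = 8) were taken 1 week after castration, when prostate-specific antigen (PSA) in serum was lowest. CRPC tumors (n = 10) had relapsed after castration, by serum PSA or by reaching 1000 mm3. Mice of the last groups received enzalutamide, a drug that blocks androgen signaling, at 10 mg/kg by mouth on 5 days a week once PSA began to rise after castration. ENZS tumors (n = 12) were taken at the second PSA low on the drug, and ENZR tumors (n = 15) after relapse on it. Treated groups were therefore all castrated too, and the effect of enzalutamide on an intact host was not measured.

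Making a ribosome is among the largest costs of a growing cell. RNA polymerase I copies ribosomal DNA in the nucleolus, small nucleolar ribonucleoproteins (snoRNPs) modify the transcript, and processing complexes cut it and fold it into the small (40S) and large (60S) subunits. MYC is a transcription factor that binds the E-box motif as a dimer with MAX and is known to raise expression of many genes of this pathway, and dividing cells need more ribosomes. In prostate cells androgen drives secretory genes such as KLK3, which encodes PSA, and also growth. Whether MYC and these factors follow cell division or the androgen output of the tumors was the question asked of the 5 groups.

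Levels are given as rescaled TPM, a measure of transcript abundance that corrects for gene length. In the deposited table, TPM of human genes summed to 12.1% to 97.5% of 1000000 per tumor with a median of 89.9%, and each tumor was rescaled to 1000000. The sum was under 30% in 2 tumors, POST-CX mouse 91 (27.9%) and ENZR mouse 87 (12.1%). KLK3, HOXB13 and FOLH1, markers of LNCaP cells, were at 1 TPM or more in all 54 tumors. Of 20 markers of stroma, vessels and blood, PECAM1, CDH5, KDR, PTPRC, HBA1, HBA2 and HBB stayed under 1 TPM in every tumor, while COL3A1, DCN, LUM and CD68 had higher medians in ENZS and ENZR than in PRE-CX. Of the 8 that were tested, 6 were called higher and 1 lower than in PRE-CX, both in ENZS and in ENZR. Of all tested genes, 47.5% were higher and 13.6% lower in ENZS, and 44.6% and 13.8% in ENZR. The vessel marker VWF went from a median of 4.90 TPM in PRE-CX to 1.55 in ENZS and 1.03 in ENZR. The summed level of the 20 ran from 20.7 to 33.0 TPM in PRE-CX, 19.0 to 49.2 in POST-CX, 26.5 to 111 in CRPC, 42.9 to 324 in ENZS and 19.6 to 110 in ENZR. The part of these reads in the differences below was not tested. In bulk tumors, fewer cells that express a gene and less RNA per cell cannot be told apart.

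Differences are given in log2(rescaled TPM + 1) with their standard error (SE), and a gene was called higher or lower at an adjusted p under 0.05 in limma over 17593 tested genes. The tested genes included 37 of the 38. MYCN, the relative of MYC known from neuroblastoma, had a median of 0 TPM in all 5 groups and reached at most 0.0363 TPM, so it was not tested.

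MYC was high in intact tumors, stayed high after castration and was low under enzalutamide. In PRE-CX the lowest, median and highest tumors held 65.0, 114 and 146 TPM of MYC. POST-CX tumors held 49.2, 123 and 142 TPM, and CRPC tumors 53.6, 86.3 and 118 TPM. These 3 groups overlapped broadly. ENZS tumors held 7.38, 37.3 and 65.5 TPM, so that all but the uppermost of the 12 lay under every PRE-CX tumor, and ENZR tumors spread from 10.7 through 61.8 to 133 TPM, across nearly the whole range of the series. Relative to PRE-CX, MYC fell by 1.69 ± 0.31 (SE) on the log2 scale in ENZS (adjusted p = 9.26e-06), with 12 of 12 tumors under the PRE-CX median. In ENZR it fell by 1.08 ± 0.30 (adjusted p = 0.00194), with 14 of 15 tumors under that median. The POST-CX difference was 0.11 ± 0.35 (95% interval -0.59 to 0.80), and the CRPC difference -0.25 ± 0.33 (-0.91 to 0.41), neither past the threshold. The mitochondrial share of TPM, which can follow RNA quality, had medians of 16.1% in PRE-CX, 16.7% in POST-CX, 15.6% in CRPC, 18.0% in ENZS and 17.4% in ENZR. It was high in some tumors of low MYC, at 26.2% in ENZS mouse 49 (7.38 TPM of MYC), 25.8% in ENZR mouse 87 (10.7 TPM), 30.3% in ENZR mouse 23 (16.6 TPM) and 26.7% in POST-CX mouse 91 (49.2 TPM). In ENZS mouse 56 (8.70 TPM) and ENZR mouse 98 (17.7 TPM) it was 15.8% and 14.2%. Its part in the MYC difference was not tested.

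**Figure D1:**
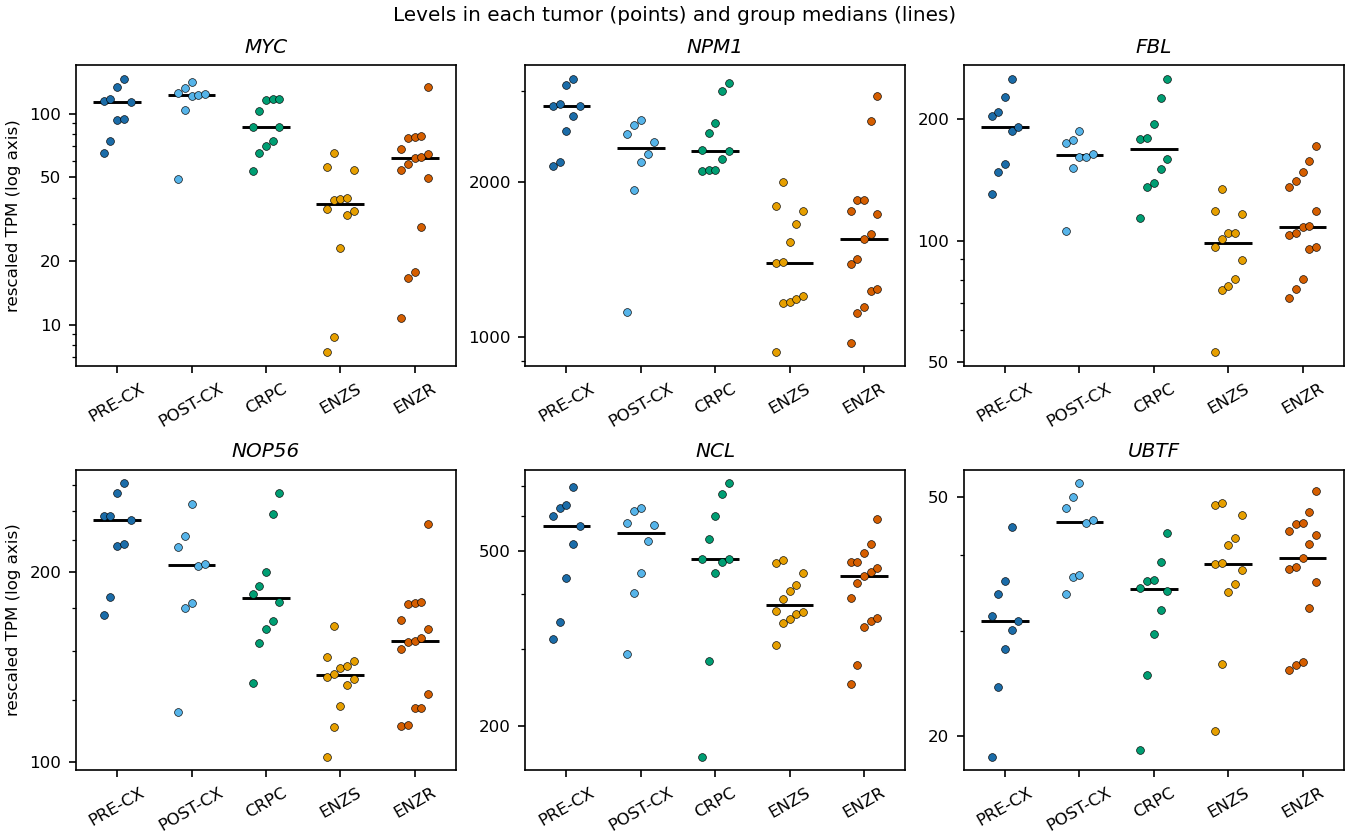
Levels of 6 genes in each of 54 tumors (rescaled TPM, log axis) by group, with a line at each group median. MYC has a median of 114 TPM in PRE-CX, 123 in POST-CX and 37.3 in ENZS, and UBTF is not lower in the enzalutamide groups.

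Under enzalutamide, 21 of the 37 genes were lower in ENZS than in PRE-CX and 2 were higher, against 13.6% of all tested genes lower and 47.5% higher. The median difference of the 37 was -0.29, while the median of all tested genes was 0.29, so that a gene with no change relative to the median gene shows a difference near 0.29 here. Adjusted p under 0.05 with an absolute difference of at least 1 was met by 2 of them, MYC and NOP16, and by 13.6% of all tested genes. In ENZR 16 were lower and 4 higher than in PRE-CX (13.8% and 44.6% of all tested genes), with a median of -0.23 beside 0.25 for all genes, and MYC alone met the size limit, which 10.2% of all genes met. With each tumor centered on its median gene, 30 were lower and 0 higher in ENZS, where 28.3% of all genes were lower and 26.6% higher. In ENZR 30 were then lower and 1 higher (27.7% and 24.2% of all genes). On the scale of TPM as deposited, 9 were lower and 0 higher in ENZS, where 8.18% of all genes were lower and 30.3% higher, and 13 were lower and 0 higher in ENZR (11.5% and 17.6% of all genes). The share of TPM from genes of cytosolic ribosomal proteins, the products that these factors assemble, had medians of 18.4% in PRE-CX, 11.9% in ENZS and 12.9% in ENZR.

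Before centering, the genes at the start of the pathway were not among those that fell. RNA polymerase I is represented by its catalytic subunit POLR1A and the second largest subunit POLR1B, with RRN3 (TIF-IA), which brings the polymerase to the promoter, and UBTF, which binds ribosomal DNA. None of these 4 was called lower in ENZS or ENZR on that scale. RRN3 ran from 25.3 through 37.8 to 52.0 TPM in PRE-CX and from 36.5 through 50.7 to 76.3 TPM in ENZS, with overlap. It rose by 0.41 ± 0.12 in ENZS (adjusted p = 0.0022) and by 0.30 ± 0.11 in ENZR (adjusted p = 0.0205). UBTF rose in ENZR (0.32 ± 0.13, adjusted p = 0.0367) but not past the threshold in ENZS (0.30 ± 0.14, adjusted p = 0.057). These rises are close to the shift of the median gene. After centering, RRN3 was at 0.12 in ENZS (adjusted p = 0.279) and 0.04 in ENZR, and UBTF at 0.06 in ENZR, none of them called. POLR1A and POLR1B differed by 0.09 ± 0.16 and -0.01 ± 0.14 in ENZS, and after centering by -0.21 ± 0.13 (adjusted p = 0.165) and -0.30 ± 0.12 (adjusted p = 0.0248), so that POLR1B was then called lower. In ENZR the centered values were 0.05 for POLR1A and -0.16 for POLR1B, neither called.

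Of 8 snoRNP proteins, 5 were lower in ENZS and 4 in ENZR. Box C/D snoRNPs place methyl groups on rRNA, and their methyltransferase fibrillarin (FBL) and the scaffold proteins NOP56 and NOP58 were all lower in both enzalutamide groups. FBL ran from 131 through 191 to 250.5 TPM in PRE-CX and from 52.9 through 98.8 to 134 TPM in ENZS, with little overlap, and fell by 0.98 ± 0.15 (adjusted p = 1.71e-07). NOP56 held 171, 241 and 276 TPM in PRE-CX and 102, 137 and 164 TPM in ENZS, with no overlap, and fell by 0.76 ± 0.12 (adjusted p = 3.45e-07). NOP58 fell by 0.57 ± 0.14. In ENZR the falls were 0.74, 0.58 and 0.49 for FBL, NOP56 and NOP58.

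Box H/ACA snoRNPs convert uridine to pseudouridine with the enzyme dyskerin (DKC1) and the partners NHP2, NOP10 and GAR1. NHP2 fell by 0.52 ± 0.09 in ENZS (adjusted p = 6.42e-06) and by 0.38 ± 0.09 in ENZR (adjusted p = 0.000376). DKC1 ran from 53.1 through 76.4 to 96.2 TPM in PRE-CX and from 44.1 through 56.9 to 78.7 TPM in ENZS, with wide overlap. It fell by 0.38 ± 0.14 in ENZS (adjusted p = 0.0143), while its ENZR difference of -0.23 ± 0.13 missed the threshold (adjusted p = 0.117). After centering DKC1 was at -0.49 in ENZR (adjusted p = 0.00154), called lower. NOP10 (0.03 ± 0.11 in ENZS), GAR1 (-0.11 ± 0.11) and the snoRNP chaperone NOLC1 (-0.23 ± 0.13) were not called in either group. The difference between subunits was not tested.

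Of 10 factors of the small subunit processome, which assembles on the 5′ part of the transcript, and of 40S maturation, 4 were lower in ENZS. NOP14 fell by 0.72 ± 0.15 (adjusted p = 3.67e-05), from a PRE-CX median of 30.7 TPM to 17.9 TPM. WDR43 fell by 0.54 ± 0.13, RRP9, a U3 snoRNP protein, by 0.34 ± 0.10, and BYSL by 0.29 ± 0.11. All 4 were lower in ENZR as well, by 0.54, 0.33, 0.29 and 0.24. WDR75 moved the other way: it ran from 30.2 through 34.9 to 44.3 TPM in PRE-CX and from 29.0 through 49.7 to 76.3 TPM in ENZR, and rose by 0.51 ± 0.12 (adjusted p = 0.00044), after 0.34 ± 0.13 in ENZS (adjusted p = 0.0207). After centering it stood at 0.26 in ENZR (adjusted p = 0.0264), still called, and at 0.05 in ENZS (adjusted p = 0.722), no longer called. The export factor RRP12 rose by 0.30 ± 0.11 in ENZR (adjusted p = 0.0127), which centering reduced to 0.04. UTP4 (-0.08), UTP15 (-0.10), UTP20 (0.16) and the endonuclease NOB1 (-0.04), which makes the last cut of 18S rRNA, were not called in ENZS.

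Of 9 factors of 60S maturation, 6 were lower in ENZS and 0 higher. NOP16 held 35.9, 42.5 and 57.4 TPM in PRE-CX and 10.6, 20.8 and 28.2 TPM in ENZS, with no overlap, and fell by 1.03 ± 0.16 (adjusted p = 2.26e-07). In ENZR it fell by 0.83 ± 0.15 (adjusted p = 7.11e-06). PPAN likewise did not overlap (PRE-CX 23.9 to 43.7 TPM, ENZS 15.6 to 23.2 TPM) and fell by 0.73 ± 0.14. The PeBoW complex, needed for 60S processing, consists of PES1, BOP1 and WDR12, and these fell by 0.25 ± 0.11, 0.54 ± 0.14 and 0.29 ± 0.10 in ENZS. In ENZR BOP1 alone of the 3 was called (-0.46 ± 0.13, adjusted p = 0.00307). The rRNA methyltransferase NOP2 fell by 0.47 ± 0.15 in ENZS and stood at -0.30 ± 0.15 in ENZR (adjusted p = 0.0731). Nucleostemin (GNL3, -0.25 ± 0.13), MRTO4 (-0.27 ± 0.13) and RRP1B (-0.12 ± 0.14) were not called in ENZS.

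All 5 nucleolar chaperones and regulators were lower in ENZS. Nucleophosmin (NPM1), a histone and ribosome chaperone, was the most abundant of the 38 transcripts. It held 2147, 2802 and 3162 TPM in PRE-CX and 935, 1395 and 1994 TPM in ENZS, with no overlap, and fell by 0.93 ± 0.15 (adjusted p = 6.22e-07). In ENZR it spread from 974 through 1550.2 to 2933 TPM and fell by 0.78 ± 0.14 (adjusted p = 8.84e-06). Its relative NPM3 fell by 0.72 ± 0.14 in ENZS and 0.68 ± 0.13 in ENZR, LYAR by 0.73 ± 0.14 and 0.56 ± 0.13, and the RNA helicase DDX21 by 0.40 ± 0.15 and 0.43 ± 0.14. Nucleolin (NCL) held 315, 569.6 and 697 TPM in PRE-CX and 306, 378 and 476 TPM in ENZS, with wide overlap. It fell by 0.39 ± 0.17 in ENZS (adjusted p = 0.0425), which was not called without the expression filter (adjusted p = 0.0777), and stood at -0.32 ± 0.16 in ENZR (adjusted p = 0.0854). After centering NCL was at -0.58 in ENZR (adjusted p = 0.00086), called lower. NPM1 has near-identical processed pseudogenes, among which the quantification divides reads, so its level is uncertain to that extent.

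**Figure D2:**
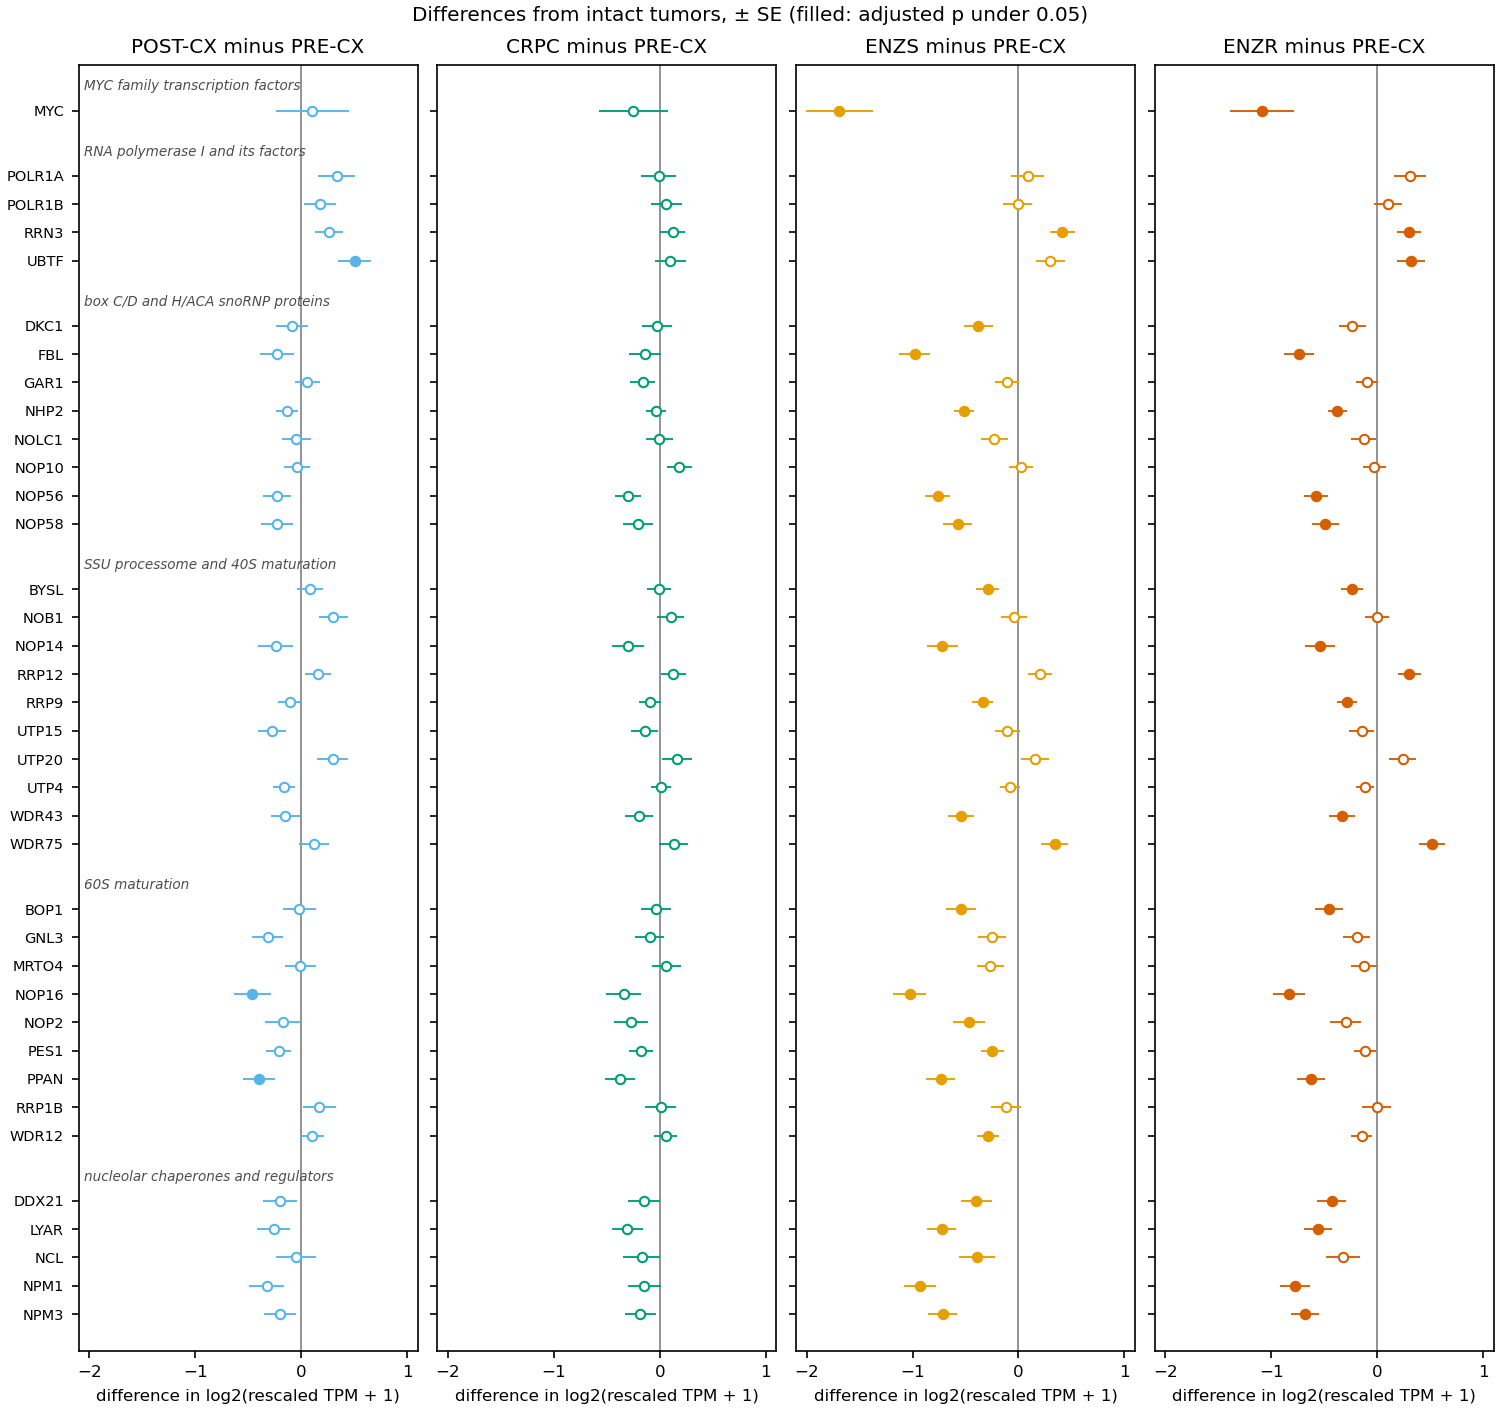
Differences of 37 genes from PRE-CX in log2(rescaled TPM + 1), ± SE, grouped by role, for the 4 castrated groups. Filled points passed adjusted p 0.05: 3 in POST-CX, 0 in CRPC, 23 in ENZS and 20 in ENZR, and none of the 4 RNA polymerase I genes has a filled point on the negative side.

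Before centering, castration alone left most of these genes near their intact level. In POST-CX 1 gene was higher, UBTF (0.51 ± 0.15, adjusted p = 0.0121), and 2 were lower, NOP16 (-0.46 ± 0.17, adjusted p = 0.0419) and PPAN (-0.40 ± 0.15, adjusted p = 0.045), beside 20.6% and 5.62% of all tested genes. UBTF ran from 18.5 through 31.1 to 44.6 TPM in PRE-CX and from 34.5 through 45.6 to 52.8 TPM in POST-CX. NOP16 and PPAN lost their calls without the 2 tumors of low human total (adjusted p = 0.0727 and 0.145). With each tumor centered, 12 were lower and 1 higher, UBTF then at 0.31, beside 14.4% and 10.2% of all genes, and on the deposited scale 0 were called. Before centering NPM1 stood at -0.32 ± 0.16, NOP56 at -0.23 ± 0.13, FBL at -0.22 ± 0.16, DKC1 at -0.08 ± 0.15 and NCL at -0.05 ± 0.19. None of these passed the threshold, and the median of all tested genes was 0.16. After centering NPM1 (-0.51, adjusted p = 0.0391) and NOP56 (-0.42, adjusted p = 0.0263) were called lower. In the same comparison 15 of 18 genes of a fixed androgen output list were lower, with a median of -1.46, and 0 of 40 cell division genes were called, with a median of -0.49.

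In CRPC 0 of the 37 were called against PRE-CX by limma, where 20% of all tested genes were, and 4 had an unadjusted p under 0.05. These 4 were PPAN (-0.38, adjusted p = 0.0538), NOP16 (-0.34, adjusted p = 0.133), LYAR (-0.31, adjusted p = 0.129) and NOP56 (-0.30 ± 0.12, adjusted p = 0.0777). DKC1 (-0.02 ± 0.14), FBL (-0.14 ± 0.15), NPM1 (-0.15 ± 0.16) and NCL (-0.17 ± 0.18) were among the rest. With centering 3 were lower, beside 11% of all genes lower and 11.6% higher. NOP56 was among the 3 (-0.39, adjusted p = 0.0315). From POST-CX to CRPC 0 were called (0.0625% of all genes, 11 genes) and 2 had an unadjusted p under 0.05. In that step MYC stood at -0.36 ± 0.34, NPM1 at 0.18 ± 0.16, NCL at -0.13 ± 0.18, FBL at 0.09 ± 0.16, NOP56 at -0.07 ± 0.13 and DKC1 at 0.06 ± 0.15.

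Enzalutamide response was then set against the castrated groups themselves. Against CRPC, 18 genes were lower and 1 higher in ENZS (6.41% and 31.4% of all genes). MYC fell by 1.44 ± 0.31 (adjusted p = 0.000372), FBL by 0.84 ± 0.14 (adjusted p = 2.52e-05), NPM1 by 0.78 ± 0.14, NOP16 by 0.69 ± 0.15, NOP56 by 0.46 ± 0.11 and DKC1 by 0.36 ± 0.13, while NCL at -0.22 ± 0.17 was not called. Centering took NCL to -0.42 (adjusted p = 0.0312), called lower. RRN3 rose by 0.29 ± 0.11 (adjusted p = 0.0384), which centering reduced to 0.09. MYC alone passed the size limit of 1, as 2.82% of all genes did. The NPM1 ranges did not overlap, with the highest ENZS tumor at 1994 TPM and the lowest CRPC tumor at 2098 TPM.

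Against POST-CX, a comparison added after seeing the data, 14 were lower in ENZS and 0 higher (7.53% and 20.2% of all genes). MYC fell by 1.80 ± 0.33 (adjusted p = 4.62e-05) and was again the gene past the size limit, which 3.63% of all genes passed. FBL fell by 0.75 ± 0.15 (adjusted p = 0.000206), NPM1 by 0.61 ± 0.15, NOP16 by 0.57 ± 0.16 and NOP56 by 0.53 ± 0.12. NCL (-0.35 ± 0.18) and DKC1 (-0.30 ± 0.14) missed the threshold. Both were called lower with centering, without the low-total tumors, with the human total as covariate and with the 2 groups alone. Their adjusted p then ran from 0.0195 to 0.0428, and under the other alternatives they were not called. The androgen output list had 0 of 18 genes lower and 1 higher in this comparison, beside the 7.53% and 20.2% of all genes. Its median was 0.22, and that of all tested genes 0.13. Of the 40 cell division genes 39 were lower, with a median of -1.99. On the deposited scale 1 of the 14 was still called lower, beside 1.89% of all genes lower and 17.8% higher. With the low-total tumors left out on that scale 15 were called, beside 7.04% of all genes lower and 21.3% higher.

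**Figure D3:**
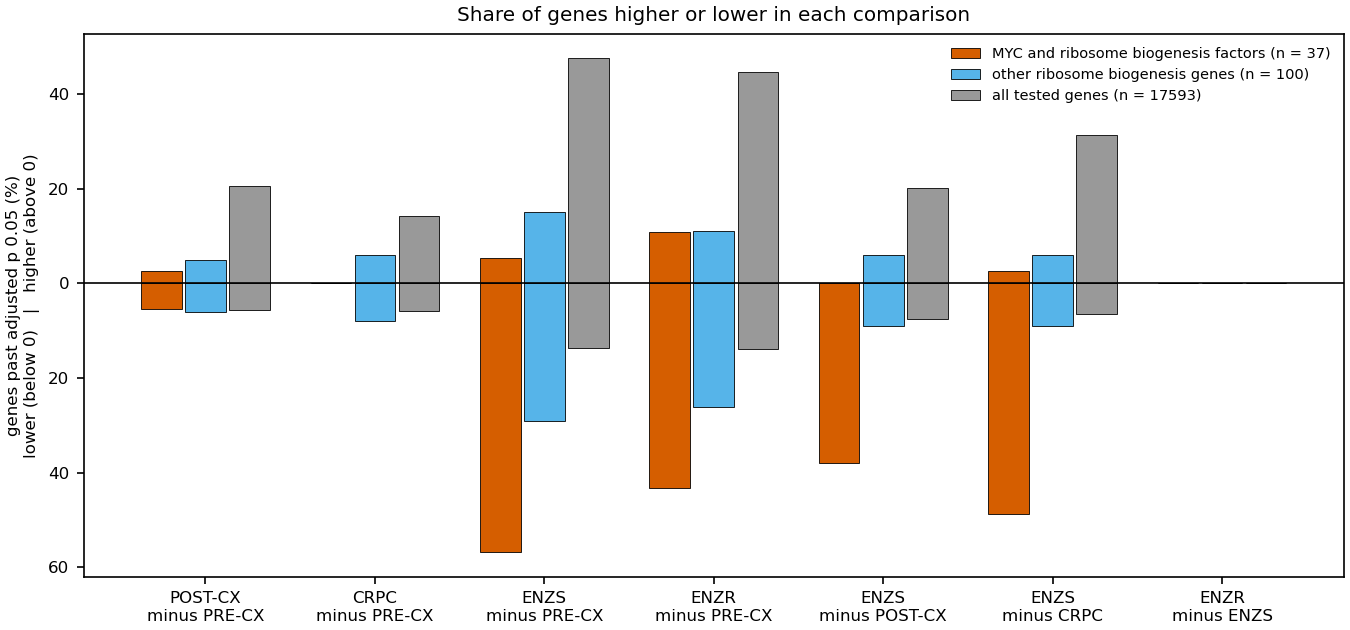
Shares of genes past adjusted p 0.05 (%), higher above the line and lower below it, for the 37 tested genes, 100 other ribosome biogenesis genes and all 17593 tested genes in 7 comparisons. Of the 37, 21 are lower in ENZS and 16 in ENZR against PRE-CX, 18 in ENZS against CRPC and 14 in ENZS against POST-CX, while 47.5% of all genes are higher in ENZS than in PRE-CX.

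Relapse on enzalutamide did not move any of these genes past the threshold. From ENZS to ENZR 0 of the 37, and 0% of all 17593 genes, were called by limma, and 1 of the 37, MYC, had an unadjusted p under 0.05. The MYC difference was 0.61 ± 0.28 (95% interval 0.05 to 1.16, adjusted p = 0.464), with 11 of 15 tumors above the ENZS median. FBL stood at 0.24 ± 0.13, NOP56 at 0.18 ± 0.10, NPM1 at 0.15 ± 0.13, DKC1 at 0.14 ± 0.12 and NCL at 0.07 ± 0.15. The relapse step on enzalutamide minus the relapse step after castration gave 0 calls among the 37 and 0.199% of all genes, with 3 of the 37 at an unadjusted p under 0.05. For MYC that difference was 0.96 ± 0.44 (95% interval 0.09 to 1.84, adjusted p = 0.314). It was 0.25 ± 0.16 for NOP56, 0.20 ± 0.24 for NCL, 0.16 ± 0.20 for FBL, 0.08 ± 0.19 for DKC1 and -0.03 ± 0.21 for NPM1.

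A further 100 genes of ribosome biogenesis, listed from general knowledge and none of them among the 38, gave smaller shares of falls, a difference that was not tested. In ENZS 29 were lower and 15 higher than in PRE-CX, with a median of -0.07, and in ENZR 26 were lower and 11 higher, with a median of -0.08. Of all tested genes, 13.6% were lower and 47.5% higher in ENZS, and 13.8% and 44.6% in ENZR. The largest falls in ENZS were of EXOSC3, a subunit of the RNA exosome (-0.77 ± 0.13), and of TCOF1, the nucleolar protein treacle (-0.67 ± 0.15). The largest rises were of NOL7 (0.56 ± 0.07) and of TAF1B, a subunit of the promoter selectivity factor of RNA polymerase I (0.56 ± 0.11). In POST-CX 6 were lower and 5 higher, led by RPF2 (-0.46) and EXOSC3 (-0.41) and by MDN1 (0.50) and DCAF13 (0.41). Of all genes, 5.62% were lower and 20.6% higher in POST-CX. In CRPC 8 were lower and 6 higher, beside 5.87% and 14.2% of all genes. EXOSC3 (-0.45) and RRP8 (-0.43) fell most in CRPC, and DCAF13 (0.47) and DIMT1 (0.41) rose most. EXOSC3 (-0.67) and RPF2 (-0.65) led the falls in ENZR, and TAF1B (0.47) and NOL7 (0.45) the rises. Against CRPC, ENZS tumors had 9 lower, with NLE1 (-0.59) and NOP53 (-0.47) first, and 6 higher, with DDX51 (0.44) and UTP3 (0.34) first. Against POST-CX 9 were lower, led by TCOF1 (-0.61) and NOP53 (-0.49), and 6 higher, led by KRR1 (0.63) and DDX51 (0.35). Of all genes, 6.41% were lower and 31.4% higher in ENZS against CRPC, and 7.53% and 20.2% against POST-CX.

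To separate cell division from androgen output, each tumor was given an index for both. The cell division index is the mean z-score of 40 genes of DNA replication and mitosis, and the androgen output index that of 18 androgen-induced genes, both set to a mean of 0 over the 54 tumors. The groups were ordered differently by them. Mean cell division was 1.02 in PRE-CX, 0.628 in POST-CX, 0.555 in CRPC, -1.01 in ENZS and -0.511 in ENZR. Mean androgen output was 1.06 in PRE-CX, -0.349 in POST-CX, 0.109 in CRPC, -0.0589 in ENZS and -0.474 in ENZR. By median, androgen output was alike in POST-CX (-0.159, range -1.04 to 0.0873) and ENZS (-0.111, range -0.998 to 0.666). At that output POST-CX had cell division and MYC near CRPC levels or above, while ENZS had low cell division and low MYC. Group differences alone confound the indices with treatment, so slopes were also fitted within groups, with group means and both indices in 1 limma model, per 1 SD of an index over all tumors.

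Among tumors of the same group, 21 of the 37 rose with the cell division index and 1 fell, beside 7.56% and 21.2% of all tested genes. These shares of all genes include the index's own 40 genes. MYC had the steepest slope, 0.77 ± 0.14 log2 units per SD (adjusted p = 2.33e-05). The smallest p-values were those of NOP16 (0.40 ± 0.05, adjusted p = 7.18e-08), NOP56 (0.34 ± 0.05, adjusted p = 1.37e-07), FBL (0.42 ± 0.06, adjusted p = 1.61e-07) and NPM1 (0.42 ± 0.06, adjusted p = 3.28e-07). DKC1 (0.31 ± 0.06) and NCL (0.29 ± 0.08) rose as well. By role, the slope was positive and called for 5 of 8 snoRNP proteins, 3 of 10 small subunit factors, 7 of 9 factors of 60S maturation and 5 of 5 chaperones and regulators, but for 0 of 4 RNA polymerase I genes. WDR75 fell with the index (-0.20 ± 0.07, adjusted p = 0.0349), a call lost on centering (-0.14, adjusted p = 0.116) and without the ENZR group (-0.07). Of the 100 other genes 22 rose and 0 fell, NLE1 (0.37 ± 0.07) and TCOF1 (0.33 ± 0.08) most.

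No gene of the 37 was called for the androgen output index in that model (1.6% of all genes were), and 6 had an unadjusted p under 0.05. The slope was 0.15 ± 0.13 for MYC (95% interval -0.11 to 0.41), 0.03 ± 0.06 for NPM1 (-0.08 to 0.15), 0.03 ± 0.06 for FBL (-0.09 to 0.14), 0.00 ± 0.04 for NOP56, 0.15 ± 0.08 for NCL and 0.11 ± 0.06 for DKC1. Among the 100 other genes 3 rose, RRP15 (0.25 ± 0.06) and GNL2 (0.22 ± 0.05) most. This count of 0 depended on the scale and the model. With each index fitted alone, 9 rose with androgen output and 25 with cell division, beside 4.02% and 10% of all genes. The androgen output slope was then 0.48 for MYC (adjusted p = 0.038), 0.27 for NCL (adjusted p = 0.0316) and 0.24 for DKC1 (adjusted p = 0.0126), all called, and 0.21 for FBL, 0.21 for NPM1 and 0.15 for NOP56, none called. On the deposited scale all 37 rose with androgen output, as did 80.8% of all tested genes, and without the 2 low-total tumors on that scale 3 did, beside 5.51% of all genes.

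A slope called for one index and not for the other does not show that the slopes differ, so the difference was tested, a comparison added after seeing the data. The cell division slope was larger by a called amount for 4 genes and smaller for 0 (2.96% and 10.8% of all genes). These were NPM3 (0.46 ± 0.10, adjusted p = 0.00201), FBL (0.40 ± 0.10, adjusted p = 0.00429), NPM1 (0.39 ± 0.10, adjusted p = 0.00642) and NOP56 (0.34 ± 0.08, adjusted p = 0.00236). For MYC the difference was 0.62 ± 0.23 (95% interval 0.17 to 1.08), which missed the threshold (adjusted p = 0.0571). MYC was called with a pseudocount of 0.1 (0.69, adjusted p = 0.0311) and without the 2 low-total tumors (0.63, adjusted p = 0.0493), but under no other alternative. For DKC1 the difference was 0.20 ± 0.10, called after centering (0.32, adjusted p = 0.0417), and for NCL 0.14 ± 0.14. Of the 100 other genes 2 were called, TCOF1 (0.36) and UTP14A (0.29). On the deposited scale the direction turned, with 3 genes smaller and 0 larger, beside 43.8% of all genes smaller and 1.79% larger. Without the 2 low-total tumors on that scale 3 were larger again, beside 9.87% of all genes smaller and 2.08% larger.

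**Figure D4:**
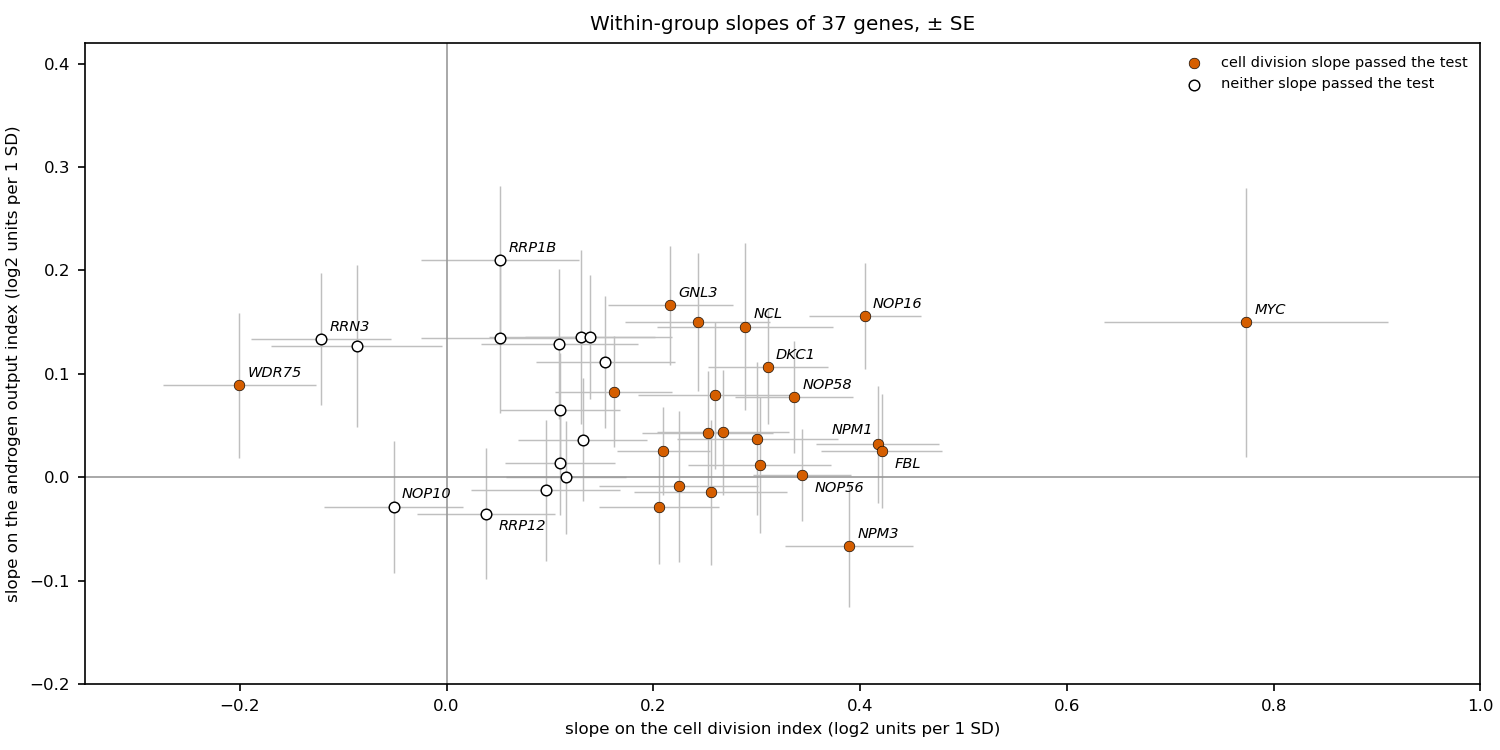
Slopes of 37 genes on the androgen output index (vertical axis) against those on the cell division index (horizontal axis), both in log2 units per 1 SD and ± SE, from 1 model with group means. Filled points passed adjusted p 0.05 for cell division, and MYC lies farthest right at 0.77.

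Within single groups MYC rose with the cell division index in the treated and relapsed tumors. Pearson's r was 0.692 in ENZS (n = 12, rho = 0.741, permutation p = 0.00498, adjusted p = 0.0249 over 10 relations) and 0.7001 in ENZR (n = 15, rho = 0.679, permutation p = 0.00238, adjusted p = 0.0238). Without the 2 tumors farthest from the median index, r was 0.770 and 0.810. In CRPC r was 0.733 (n = 10, rho = 0.770), with an adjusted permutation p of 0.0544 for r and 0.0453 for rho, and 0.553 without the 2 farthest. In PRE-CX r was 0.534 (n = 9, rho = 0.417, exact permutation p = 0.141, adjusted p = 0.236), and 0.597 without the 2 farthest. The POST-CX value of 0.887 (n = 8, exact permutation p = 0.166) rested on mouse 91, the tumor with 27.9% human TPM: rho was -0.0238, and r was -0.294 without the 2 farthest tumors.

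With androgen output no relation of MYC passed the adjusted threshold. The largest r was 0.618 in ENZS (n = 12, rho = 0.671, permutation p = 0.0377), with an adjusted permutation p of 0.0942 for r and 0.0507 for rho. This r fell to 0.387 without the 2 farthest tumors. In ENZR r was 0.481 (adjusted permutation p = 0.1504), in POST-CX 0.319, in CRPC 0.230 and in PRE-CX -0.349. Without the 2 farthest tumors these became 0.231 in ENZR, 0.304 in POST-CX, 0.626 in CRPC and 0.220 in PRE-CX, so that the PRE-CX value changed sign. With TPM as deposited the ENZR value was 0.827 (adjusted permutation p = 0.029).

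**Figure D5:**
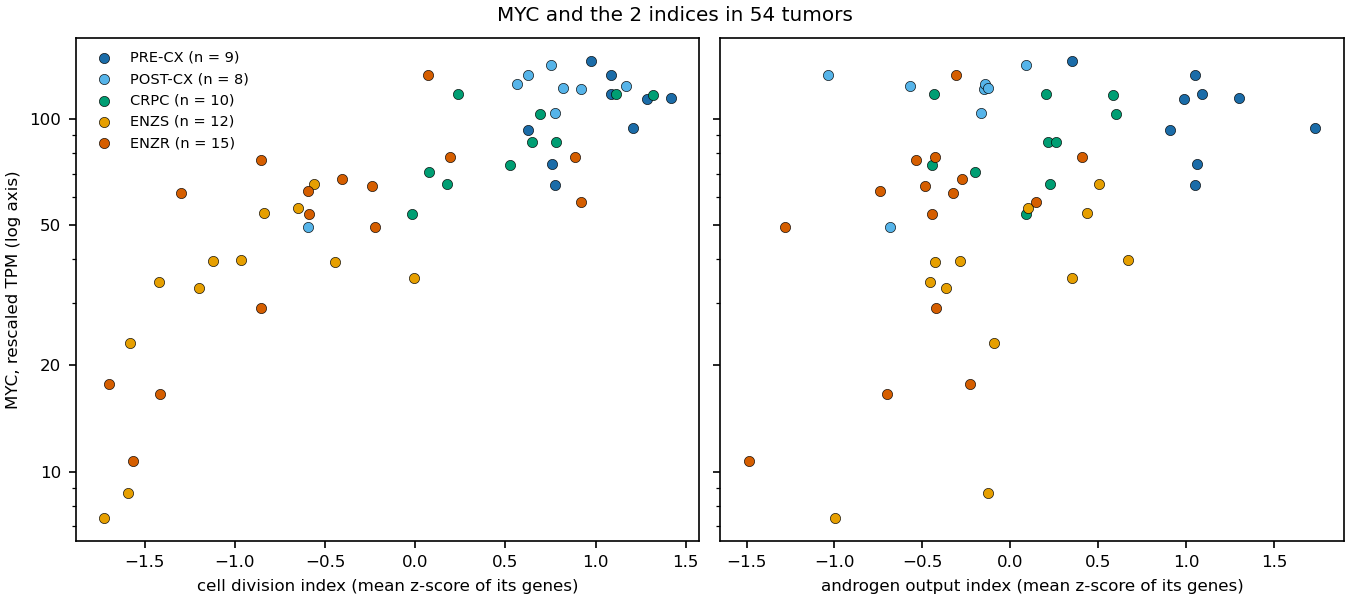
MYC (rescaled TPM, log axis) against the cell division index (left) and the androgen output index (right) in 54 tumors colored by group. ENZS and ENZR tumors of low cell division hold the lowest MYC, down to 7.38 TPM. POST-CX tumors, with androgen output indices of -1.04 to 0.0873, hold MYC of 104 to 142 TPM, apart from mouse 91 at 49.2 TPM.

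Whether MYC level added to the indices was asked by a further term in the same model, also added after seeing the data. Of 36 genes, 2 rose with MYC at the same cell division and androgen output and 0 fell (0.927% and 0.091% of all genes): NOB1 (0.27 ± 0.06 per SD of MYC, adjusted p = 0.0222) and NOP16 (0.19 ± 0.05, adjusted p = 0.0375). FBL stood at 0.20 ± 0.05 (adjusted p = 0.0508) and NPM1 at 0.19 ± 0.06 (adjusted p = 0.0839), followed by NCL (0.16 ± 0.08), DKC1 (0.14 ± 0.06) and NOP56 (0.11 ± 0.05). The count was 0 without the ENZR group and 0 with the human total as a covariate, where 0.00568% and 0.409% of all genes rose. It was 1 with centering, a pseudocount of 0.1, no expression filter or no low-total tumors, beside 0.273% to 0.904% of all genes. NOP16 lost its call in each of these settings. Without the low-total tumors NOB1 lost its call as well (adjusted p = 0.0939), and the gene called there was FBL (0.21, adjusted p = 0.0459). On the deposited scale the count was 8, beside 3.06% of all genes.

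The E-box CACGTG, the motif that MYC and MAX prefer, was searched in the promoters of these genes, since promoters of genes that move together are often compared for shared letters. The motif reads the same on both strands. Windows ran from 250 bases before to 50 after the RefSeq start (GRCh38.p14), and 32 of the 38 genes had one. MYC, NOP58, BOP1, RRP12, RRP1B and NOLC1 were not analysed here. The motif stood in 11 of the 32 windows (34.4%), against 7.43% of all 27305 promoters, 10.1% of the promoters of tested genes and 32.9% of 85 promoters of the other ribosome biogenesis genes. It stood in 7 of 18 promoters of genes lower in ENZS (38.9%) and 4 of 13 of tested genes that were not (30.8%). NOP56, NPM1, NOP16 and NCL, which fell in ENZS, had none in this window.

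The 4 genes with the largest falls in ENZS among those with the motif were FBL, NOP14, WDR43 and NOP2. Their windows are shown because all 4 hold it within 36 bases after the start, in capitals here. FBL lies at chr19:39846330-39846629 on the minus strand with the motif at +7, NOP14 at chr4:2963357-2963656 on the minus strand at +16, WDR43 at chr2:28894417-28894716 on the plus strand at +4, and NOP2 at chr12:6568242-6568541 on the minus strand at +36.
FBL: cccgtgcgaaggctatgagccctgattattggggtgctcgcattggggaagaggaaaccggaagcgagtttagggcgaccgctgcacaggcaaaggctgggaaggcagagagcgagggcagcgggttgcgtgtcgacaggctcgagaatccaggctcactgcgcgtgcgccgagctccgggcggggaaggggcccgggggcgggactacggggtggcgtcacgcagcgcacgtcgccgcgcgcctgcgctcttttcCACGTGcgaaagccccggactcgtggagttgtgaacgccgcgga
NOP14: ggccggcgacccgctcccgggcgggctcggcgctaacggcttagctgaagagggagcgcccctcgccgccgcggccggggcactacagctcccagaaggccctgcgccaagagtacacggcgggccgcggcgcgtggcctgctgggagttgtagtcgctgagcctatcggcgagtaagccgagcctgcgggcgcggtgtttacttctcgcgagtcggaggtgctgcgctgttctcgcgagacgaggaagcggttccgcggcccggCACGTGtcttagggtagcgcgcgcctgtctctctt
WDR43: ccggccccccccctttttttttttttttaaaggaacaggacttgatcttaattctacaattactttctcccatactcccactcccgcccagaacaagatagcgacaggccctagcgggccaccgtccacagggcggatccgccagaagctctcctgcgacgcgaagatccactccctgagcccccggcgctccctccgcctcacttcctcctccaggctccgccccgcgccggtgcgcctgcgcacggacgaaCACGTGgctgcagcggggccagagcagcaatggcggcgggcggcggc
NOP2: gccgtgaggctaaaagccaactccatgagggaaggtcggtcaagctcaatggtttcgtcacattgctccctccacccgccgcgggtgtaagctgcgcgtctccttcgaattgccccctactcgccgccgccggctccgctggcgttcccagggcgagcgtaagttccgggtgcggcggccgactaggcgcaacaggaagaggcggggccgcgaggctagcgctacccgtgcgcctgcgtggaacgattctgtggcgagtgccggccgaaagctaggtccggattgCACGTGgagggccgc

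Next to these letters, FBL was at -0.98 and NOP14 at -0.72 in ENZS against PRE-CX, and WDR43 and NOP2 at -0.54 and -0.47. MRTO4, with the motif at +15, was at -0.27 and not called, while BYSL (+29) and PES1 (+14) were called lower at -0.29 and -0.25. NOP10, which held the motif 2 times before its start, was at 0.03, and UTP20, with it at -10, at 0.16. With it at -16 and -5, UTP4 was at -0.08, not called, and RRP9 at -0.34, called lower. A match is a description of the letters, and binding was not measured.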

How the data were processed

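RNA of 54 LNCaP xenograft tumors was sequenced by the authors as strand-specific poly(A) libraries. Per the labels and the study's methods, reads were checked with FastQC (0.11.9), trimmed with Trim Galore (0.6.5), aligned with STAR (2.7.2b) to a combined human GRCh38 and mouse GRCm38 reference and quantified with RSEM (1.3.3). What the authors deposited is a table of TPM by human gene symbol, and mouse genes were left out of the table. TPM hold no read depth, so no counting interval is given and the precision rests on the spread between tumors, each from its own mouse.

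TPM were rescaled to 1000000 per tumor, and log2(TPM + 1) was tested for genes that reached 1 TPM in 8 or more tumors. limma (3.58.1, R 4.3.3, trend) fitted 5 group means over all 54 tumors, with Benjamini-Hochberg adjustment over all tested genes in each comparison, and was tested on simulated data. A difference understates the change of genes near 1 TPM. Relations of MYC to the indices used two-sided permutation tests (scipy, exact under 10 tumors, otherwise 100000 resamples).

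The genes, lists and tests were chosen with earlier results of these data known, and the lists are hand-written. MYC, NPM1, NCL, FBL, NOP56 and DKC1 were named in every comparison, with the 4 called genes of the 38 with the largest rise and fall (for slopes, the 4 smallest p each way) and the 2 called others of ribosome biogenesis with the largest rise and fall. Alternatives were TPM as deposited, centering on the median gene, a pseudocount of 0.1, no expression filter, leaving out 2 tumors of low human total, that total as a covariate, only the groups compared, each index alone and no ENZR group. The labels give no batch. Promoters came from RefSeq.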

Additional observations from a re-analysis of the deposited data

Results flagged for a closer look

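In groups of 8 to 10 tumors, 117 sets of values were checked for a tumor far from the rest by Dixon's ratio on the log2 scale, and 17 stood out, each time as the lowest. Chance gives about 1 in 20 sets, and genes of a tumor are not independent, so 1 unusual tumor raises many at a time. POST-CX mouse 91, whose human TPM were 27.9% of the total, accounted for 14 of them. Its cell division index was -0.593, against 0.562 to 1.17 in the other 7 POST-CX tumors. Its MYC was 49.2 TPM, against 104 to 142 TPM. NPM1 was 1118 TPM against 1924 to 2628 TPM, FBL 106 against 151 to 187, and GNL3 191 against 263 to 334. NOP58 stood at 44.1 TPM, DKC1 at 49.2, DDX21 at 44.4, NOB1 at 40.8, NPM3 at 24.3, WDR43 at 21.4, MRTO4 at 10.4, UTP15 at 9.83 and LYAR at 9.68. Low cell division and a low human total coincide in this tumor and cannot be told apart. CRPC mouse 47 was lowest for BOP1 (8.75 TPM, the others 15.1 to 24.2), POLR1A (2.60 TPM, the others 4.76 to 8.61) and BYSL (11.9 TPM, the others 15.5 to 20.6).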

How the results depend on the processing

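No paired analysis was possible because the mouse numbers differ between groups. With TPM as deposited, called genes were 0 in POST-CX, 9 in ENZS and 13 in ENZR against PRE-CX, 3 in ENZS against CRPC, 1 in ENZS against POST-CX, 37 for the androgen output slope, 3 for the slope difference (all reversed) and 8 for the MYC slope. Of all genes on that scale, 2.67% were lower and 1.66% higher in POST-CX against PRE-CX, and 2.71% and 6.21% in ENZS against CRPC. Against POST-CX 1.89% were lower and 17.8% higher in ENZS, and 3.06% rose with MYC. Leaving out the 2 low-total tumors as well gave 0 in POST-CX, 3 for androgen output and 1 for MYC. Of all genes, 4.36% were then lower and 10.5% higher in POST-CX, 5.51% rose with androgen output and 0.595% with MYC. Centering gave 13 in POST-CX, 3 in CRPC and 31 in ENZR against PRE-CX, 25 in ENZS against POST-CX, 13 for the slope difference and 1 for MYC. All 25 were lower, beside 12.3% of all genes lower and 14.6% higher. The slope difference was then larger for 4.3% and smaller for 3.33% of all genes, and 0.523% rose with MYC. POST-CX calls were 1 without the filter, 2 without the low-total tumors and 2 with the total as covariate, all higher in place of mostly lower, and 5 with the 2 groups alone. Of all genes, 7.62% were higher and 2.83% lower without the filter, and 18.8% and 4.42% without the low-total tumors. With the covariate 20.9% were higher and 4.88% lower, and with the 2 groups alone 25% and 6.46%. CRPC calls were 1 without the low-total tumors (6.42% of all genes lower, 15% higher) and 2 with the covariate (6.71% and 14.9%), all lower. The MYC slope gave 1 call without the filter, with pseudocount 0.1 or without the low-total tumors, and 0 with the covariate or without ENZR. In that order, 0.273%, 0.904%, 0.529%, 0.409% and 0.00568% of all genes rose with MYC. Androgen output alone gave 9. No other count moved by over 1.5 times, and the cell division slope kept 18 to 28 positive calls, beside 3.2% to 13% of all genes.

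Of single genes under an alternative, 651 of 776 values kept direction and call, 66 lost a call, 31 gained one and 28 reversed. All reversed values were uncalled. With TPM as deposited they were MYC in POST-CX (-0.16), DKC1 in CRPC (0.017), NCL (0.19) and NOP56 (0.24) from POST-CX to CRPC, NCL (-0.14), NPM1 (-0.062), DKC1 (-0.050) and NOP56 (-0.027) from ENZS to ENZR, DKC1 (-0.41), FBL (-0.36), NCL (-0.32) and NOP56 (-0.26) between the relapse steps, and DKC1 (-0.091) and NCL (-0.17) for the slope difference. Without the low-total tumors on that scale DKC1 in CRPC (0.017) and NPM1 between relapse steps (0.00547) reversed. Centering reversed MYC in POST-CX (-0.085), NOP56 from POST-CX to CRPC (0.029) and its androgen slope (-0.022). Leaving out the low-total tumors reversed NCL in POST-CX (0.061), DKC1 from POST-CX to CRPC (-0.00955) and NPM1 between relapse steps (0.14). The covariate reversed DKC1 (0.024) and NCL (0.064) in POST-CX, DKC1 (-0.069) and FBL (-0.0373) from POST-CX to CRPC, NPM1 between relapse steps (0.20) and the NOP56 androgen slope (-0.0074). The POST-CX relations of MYC reversed without the low-total tumors, to r = -0.177 for cell division and -0.121 for androgen output, and with TPM as deposited the CRPC relation to cell division (0.759) and the ENZR relation to androgen output (0.827) passed the permutation threshold. The cause of these changes was not tested.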

Other observations

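Genes near MYC and the nucleolus were counted in the same fits. Of 10 partners and relatives of MYC, 3 were lower in ENZS than in PRE-CX, beside 13.6% of all genes. They were MXD3 (-1.27 ± 0.20), MLX (-0.57 ± 0.09) and MYCL (-0.42 ± 0.15). The dimer partner MAX was higher (0.36 ± 0.08, adjusted p = 0.000119 in limma), where 47.5% of all genes were higher and the median gene stood at 0.29. With each tumor centered on its median gene MAX was at 0.07 (adjusted p = 0.402), not called. MLX (-0.51 ± 0.10) and MYCL (-0.77 ± 0.16) were already lower in POST-CX, where MYC was not called. MXI1, MNT, MGA, MXD1, MXD4 and MLXIP were not called in ENZS.

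Of 12 host genes of small nucleolar RNAs, whose introns carry the guide RNAs of the snoRNPs, 8 were lower in ENZS, beside 13.6% of all genes. SNHG7 was called higher (0.23 ± 0.10), which is under the shift of the median gene and was -0.07 after centering, not called. SNHG16 (-1.33 ± 0.17), GAS5 (-1.04 ± 0.22), SNHG3 (-0.96 ± 0.20) and SNHG1 (-0.95 ± 0.15) fell most. Within groups 8 of the 12 rose with the cell division index and 0 with androgen output, beside 7.56% and 1.52% of all genes.

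Of 26 metabolic and translation genes known to respond to MYC, 21 were lower in ENZS, beside 13.6% of all genes. SLC7A5, an amino acid transporter, was higher (0.77 ± 0.13, and 0.48 after centering, still called). In this list 8 genes were lower after castration too, beside 5.62% of all genes. Among them were LDHA (-1.51 ± 0.42), ODC1 (-0.93 ± 0.20), TFRC (-0.90 ± 0.32) and SHMT2 (-0.87 ± 0.21). Against POST-CX, ENZS tumors had 9 lower, beside 7.53% of all genes. IMPDH2 (-0.77 ± 0.16) and the initiation factors EIF4A1 (-0.68 ± 0.12) and EIF5A (-0.61 ± 0.14) came first, while LDHA (0.04 ± 0.40) and ODC1 (-0.14 ± 0.19) were not called. LDHA is also a hypoxia gene, and 11 of 15 genes of a hypoxia list were lower in POST-CX than in PRE-CX, with a median of -1.29. The part of oxygen supply was not tested.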
